A study of Caenorhabditis elegans with 2 samples.

Results

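Nuclear tRNA genes of Caenorhabditis elegans were examined for chromatin occupancy by UNC-130, which belongs to the FoxD class of forkhead transcription factors. The set holds every gene of biotype tRNA on the 6 nuclear chromosomes in the Ensembl gene models of WBcel235 (the ce11 build), 612 genes of 46890 annotated nuclear genes of any kind. Each gene was taken as a region extended by 100 bp on both sides, and a region counted as occupied where it shared at least 1 bp with a peak. The peaks came from chromatin immunoprecipitation followed by sequencing of whole L1 larvae, with the sex given as male and female pooled. The strain was OP77, with the genotype unc-119(ed3) III; wgIs77, in which wgIs77 is the inserted transgene for eGFP-tagged UNC-130 and unc-119(ed3) an allele that all animals shared. The antibody is labelled as unc-130, while the description gives the eGFP fusion as the target. The 2 biological replicates form a single group, so no conditions could be compared. Control libraries were not analysed here, and the labels name neither the cells that express the transgene nor its promoter. Signal from whole animals does not tell which cells it came from.

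tRNA genes are transcribed by RNA polymerase III from a promoter inside the gene. Transcription factor TFIIIC recognises its A box and B box, which encode the D arm and the T arm of the tRNA, and places TFIIIB just upstream of the start, where the polymerase is then recruited. Transcription ends at a run of T after the gene. C. elegans has many tRNA genes on the X chromosome and inside introns of protein-coding genes, and many of them are identical copies.

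The deposited lists give a signal value for each peak, assigned by the authors' peak caller, and no read counts, so sequencing depth is unknown. Ranks below order the peaks of a list by this signal, with 1 the highest, and are read only within that list. The optimal list holds the 2631 peaks of the pooled libraries that passed the authors' test of reproducibility. Candidate peaks, deposited together with background regions, number 30000 for the pooled libraries, 30000 for replicate 1 and 25234 for replicate 2. The highest 2631 peaks of each replicate were also used, to set lists of equal length side by side. Intervals are 95% Wilson intervals over genes or over peaks. They hold counting error and no difference between animals, and neighbouring genes can share a peak.

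Sequences of the genes with the highest peaks show what lies under them. Each runs from 60 bp before the gene to 10 bp after it, 5′ to 3′ on the gene's strand, from the RefSeq sequence of WBcel235. Capitals mark a match to the consensus letters of the A box (nearer the 5′ end) or the B box, searched on the gene's strand. A gene without capitals lacks only these exact letters. C33G3.t2 (chrX:14063936-14064078, minus strand) has the highest peak of all, rte-1 (chrX:14015884-14016025, plus strand) the next, and C38C6.t1 (chrII:14635325-14635476, minus strand) and F29C4.t1 (chrIV:143922-144064, plus strand) the highest on II and IV.
C33G3.t2: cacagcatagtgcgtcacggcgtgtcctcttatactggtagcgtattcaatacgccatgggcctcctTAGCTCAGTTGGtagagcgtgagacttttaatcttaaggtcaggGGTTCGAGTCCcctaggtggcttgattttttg
rte-1: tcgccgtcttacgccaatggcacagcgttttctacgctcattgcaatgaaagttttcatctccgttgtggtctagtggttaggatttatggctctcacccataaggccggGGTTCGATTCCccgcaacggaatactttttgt
C38C6.t1: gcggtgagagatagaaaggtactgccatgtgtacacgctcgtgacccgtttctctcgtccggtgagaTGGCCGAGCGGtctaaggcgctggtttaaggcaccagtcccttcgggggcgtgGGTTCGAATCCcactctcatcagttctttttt
F29C4.t1: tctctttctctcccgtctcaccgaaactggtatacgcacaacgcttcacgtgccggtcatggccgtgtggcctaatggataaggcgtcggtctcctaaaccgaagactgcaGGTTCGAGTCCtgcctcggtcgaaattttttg

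The next set shows neighbours that share a peak. C16B8.t2 (chrX:3970036-3970177) and C16B8.t3 (chrX:3970205-3970346) lie in tandem on the plus strand and are equal at 71 of 72 bases. W09D6.t2 (chrIII:11066838-11066979, minus strand) and W09D6.t1 (chrIII:11066967-11067108, plus strand) are identical genes that point away from each other, 107 bp apart.
C16B8.t2: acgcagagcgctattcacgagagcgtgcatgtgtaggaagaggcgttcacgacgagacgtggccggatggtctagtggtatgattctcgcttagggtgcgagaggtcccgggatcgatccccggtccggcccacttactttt
C16B8.t3: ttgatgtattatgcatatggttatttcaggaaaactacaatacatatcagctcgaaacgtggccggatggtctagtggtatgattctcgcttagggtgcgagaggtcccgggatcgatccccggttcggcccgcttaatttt
W09D6.t2: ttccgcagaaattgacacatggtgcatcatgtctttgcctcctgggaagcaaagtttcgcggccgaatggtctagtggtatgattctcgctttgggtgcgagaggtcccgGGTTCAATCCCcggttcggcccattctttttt
W09D6.t1: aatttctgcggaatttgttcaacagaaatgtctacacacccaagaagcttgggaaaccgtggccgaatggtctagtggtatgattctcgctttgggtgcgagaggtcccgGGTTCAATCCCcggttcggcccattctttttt

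The last set shows 2 copies of the largest family of identical genes, 29 genes for tRNA-Gly with anticodon TCC. M02F4.t1 (chrX:3036104-3036245, plus strand) has an optimal peak and Y43D4A.t1 (chrIV:16775122-16775263, plus strand) has no peak in any list.
M02F4.t1: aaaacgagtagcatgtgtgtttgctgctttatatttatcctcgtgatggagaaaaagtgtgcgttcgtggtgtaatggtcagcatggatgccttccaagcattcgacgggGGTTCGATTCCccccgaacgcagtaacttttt
Y43D4A.t1: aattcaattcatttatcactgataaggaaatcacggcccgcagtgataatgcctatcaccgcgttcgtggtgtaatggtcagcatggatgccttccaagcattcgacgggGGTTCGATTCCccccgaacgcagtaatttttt
Their genes are equal at all 72 bases, and their upstream sequences are equal at 18 of 60 positions when set side by side without gaps.

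About 1 in 5 nuclear tRNA genes had a peak that passed the authors' threshold, and most had at least a candidate peak. An optimal peak overlapped 122 of the 612 genes (19.9%, interval 17 to 23.3). Of all genome windows of 272 bp, the median width of the tRNA regions, 1.36% had such a peak, and of windows of that width centred on the 5′ ends of 19973 protein-coding genes, 6.15%. The share at tRNA genes was 14.7 times that of the genome windows. In the pooled candidate list, 372 tRNA genes (60.8%, interval 56.9 to 64.6) had a peak, against 15.3% of genome windows and 24.6% of protein-coding 5′ ends. A further set, chosen after these values were seen, was the 209 nuclear tRNA pseudogenes of RefSeq with no tRNA gene within 200 bp. Of these, 2 (0.957%, interval 0.263 to 3.42) had an optimal peak and 27 (12.9%) a candidate peak, shares that do not exceed those of genome windows. No peak of any of the 4 lists overlapped 185 tRNA genes.

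The replicates were alike in this contrast and unlike in its size. Among the 2631 highest peaks of replicate 1, 142 tRNA genes had one (23.2%, interval 20 to 26.7), against 1.28% of genome windows and 6.08% of protein-coding 5′ ends. Among the 2631 highest of replicate 2, 85 had one (13.9%, interval 11.4 to 16.9), against 1.43% and 5.35%. In the full lists 365 genes (59.6%) had a peak in replicate 1 and 308 (50.3%) in replicate 2, against 14.4% and 13.4% of windows, and 257 genes had one in both.

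**Figure D1:**
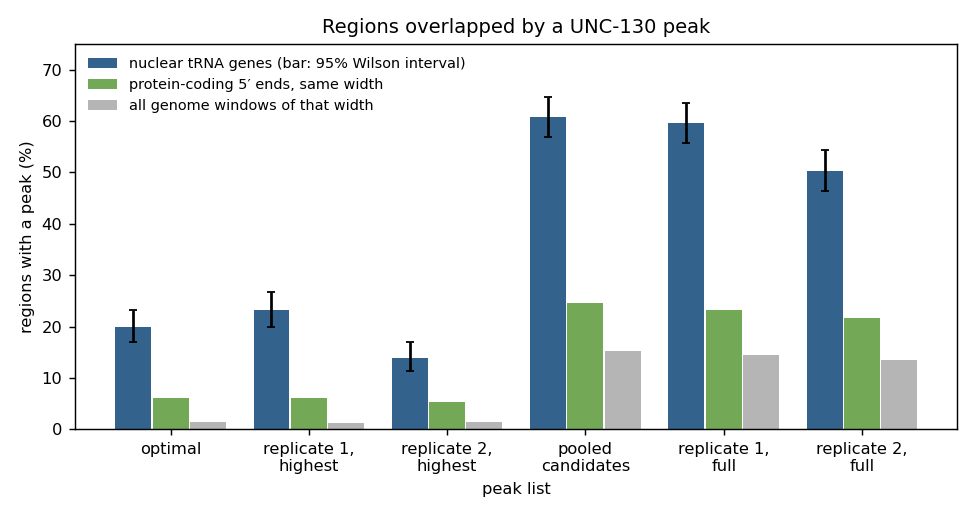
Share of regions overlapped by a peak (%, vertical axis) in each of 6 peak lists (horizontal axis), for 612 tRNA genes, for protein-coding 5′ ends and for all genome windows of 272 bp. The tRNA bars, with 95% Wilson intervals, stand above both other bars in every list, at 19.9% against 6.15% and 1.36% in the optimal list.

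The optimal peaks at tRNA genes numbered 114, or 4.33% of the list. Of these, 106 lay over 1 tRNA gene and 8 over 2. They were of middling signal: their ranks ran from 187 to 2618 with a median of 1596, against 1299 for the other 2517 optimal peaks. The median deposited signal was 32.9 at tRNA genes and 36.6 elsewhere. When the list was cut by rank into 4 groups of nearly equal size, from highest to lowest, tRNA peaks made up 1.37%, 4.71%, 5.93% and 5.33% of them. Down the pooled list they were 4.5% of the first 3000 candidate peaks, 3.47% of the next 3000, 1.43% of ranks 6001 to 9000 and at most 0.7% of each later 3000. The candidate peaks at tRNA genes thus stood mainly in the upper ranks, below the strongest peaks of the list.

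C33G3.t2, a tRNA-Lys gene with anticodon TTT between protein-coding genes on X (14063946 to 14064018), had the highest tRNA peak, rank 187 in the optimal list. Its signal was 79.2 in the pooled list, 49.0 in replicate 1 (rank 200) and 31.5 in replicate 2 (rank 255), so both replicates placed it high. The tRNA-Glu gene rte-1 (anticodon CTC, X 14015944 to 14016015) followed at rank 224, with rank 215 in replicate 1 and 680 in replicate 2. A single peak at rank 353 (X 3969941 to 3970190) overlapped the regions of C16B8.t2 and C16B8.t3, 2 tRNA-Pro genes with anticodon AGG, and ranked 377 and 693 in the replicates. Its summit lay 30 bp before C16B8.t2 and 199 bp before C16B8.t3, nearer to the first of these genes. The third gene of that run, C16B8.t1, had a pooled candidate peak at rank 6804 and no optimal peak.

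T03G6.t1, a tRNA-Gly gene (anticodon GCC, X 2613243 to 2613313), had the highest peak inside an intron. It lies on the strand opposite to its host T03G6.3, and its peak ranked 431, with 500 in replicate 1 and 584 in replicate 2. C37A2.t1, a tRNA-Cys gene (anticodon GCA, I 6781803 to 6781874) in an intron of cye-1, which encodes cyclin E, ranked 467. There the replicates differed more, with rank 1371 in replicate 1 and 328 in replicate 2. The tRNA-Ser gene K02A4.t1 (anticodon TGA, X 12889940 to 12890021) ranked 499, with 478 and 618 in the replicates.

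The tRNA-Ser genes C53C7.t2 (anticodon CGA) and C53C7.t1 (anticodon AGA), which point away from each other on X (13046366 to 13046659), shared a peak of rank 527. It ranked 704 in replicate 1 and 350 in replicate 2. The tRNA-Pro genes W09D6.t2 and W09D6.t1 (anticodon TGG, III 11066848 to 11067098), in an intron of rsa-2, shared one of rank 547, with 425 and 665 in the replicates. Its summit stood 54 bp before each gene, midway between them.

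The highest peaks on the remaining chromosomes were lower. F29C4.t1 (tRNA-Arg, anticodon CCT, IV 143982 to 144054), in an intron of the collagen gene col-99, ranked 687. C38C6.t1 (tRNA-Leu, anticodon AAG, II 14635335 to 14635416), in an intron of the chemoreceptor-family gene sre-13, ranked 778. T03E6.t1 (tRNA-Gln, anticodon CTG, V 16592237 to 16592308) ranked 990. Just outside the optimal list, whose lowest tRNA peak had a signal of 23.6, the tRNA-Leu gene ZK822.t1 (anticodon CAA, IV 11928478 to 11928596) had a candidate peak of signal 23.4 at rank 2652.

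Both replicates listed a peak at 118 of the 122 genes with an optimal peak. The other 4, F56F4.t2, K11H3.t2, sup-7 and C28G1.t1, were missing from the list of replicate 2. All 4 stood high in replicate 1, with ranks between 567 and 1400. Of the 122 genes, 106 had a peak among the 2631 highest of replicate 1, 71 among those of replicate 2, 57 among both and 2 among neither. Counted by peak, 53 of the 114 (46.5%, interval 37.6 to 55.6) overlapped the highest peaks of both replicates, against 57.7% (55.7 to 59.6) of the other optimal peaks. For replicate 1 the shares were 86.0% at tRNA genes (78.4 to 91.2) and 81.7% elsewhere (80.2 to 83.2). For replicate 2 they were 58.8% (49.6 to 67.4) and 73.9% (72.1 to 75.6), intervals that do not meet. These counts and shares, the 118 of 122 among them, describe lists from which the optimal list was itself derived.

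**Figure D2:**
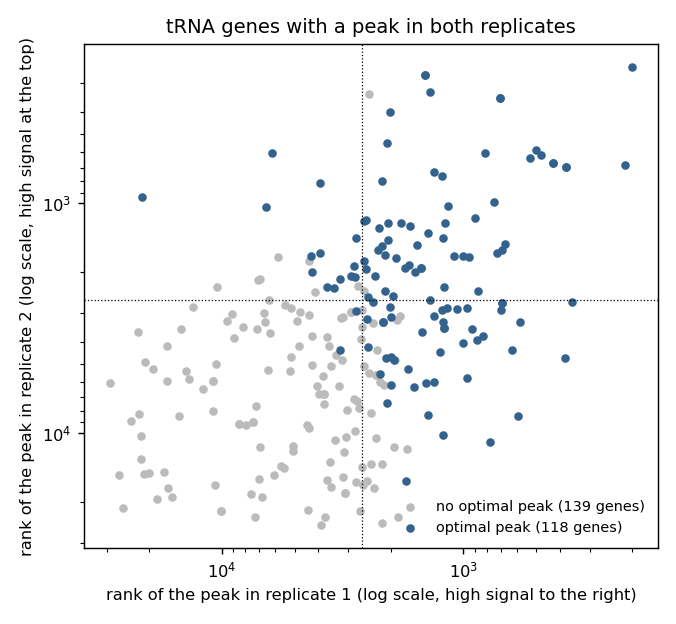
Rank of the highest peak over each tRNA gene in replicate 1 (horizontal, log scale) and replicate 2 (vertical, log scale) for the 257 genes with a peak in both full lists; high signal is to the right and at the top, and the dotted lines mark rank 2631. The 118 genes with an optimal peak fill the upper right and spread along replicate 2, and 57 of them lie inside both lines.

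Summits gathered just upstream of the tRNA genes. The deposited summit is the middle of nearly every peak. Measured along transcription from the 5′ end of each gene, the summit of its highest optimal peak had a median position of -24 bp, with the middle 50% of the 122 genes between -31.8 and -7.25 bp. Upstream summits numbered 94 (77.0%), and 84 (68.9%) lay within 50 bp before the 5′ end. Inside the gene lay 26 (21.3%), and 2 lay beyond it. The 20 bp from -40 to -21 held 55 summits, while the 20 bp from 20 to 39 held 14 and those from 0 to 19 held 7. The median was -23 bp for genes on the plus strand and -25.5 bp on the minus strand, so the offset followed the direction of transcription.

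The median position was alike in the highest peaks of the 2 replicates. Among the highest peaks of replicate 1 the median summit position was -23 bp (142 genes), and among those of replicate 2 it was also -23 bp (85 genes). At the 118 genes with a peak in both full lists the replicates' summits were a median of 23.5 bp apart, and 85 (72%) were within 50 bp. In the pooled candidate list the median was -21 bp (372 genes), with a wider middle range of -34 to 26.2 bp. In the full lists it was -19 bp in replicate 1 (365 genes, -34 to 27 bp) and -12.5 bp in replicate 2 (308 genes, -34 to 37.2 bp). In the optimal list the position hardly differed between intergenic genes (-26 bp, 55 genes), intronic genes on the strand of their host (-23 bp, 39 genes) and those on the opposite strand (-20 bp, 27 genes).

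**Figure D3:**
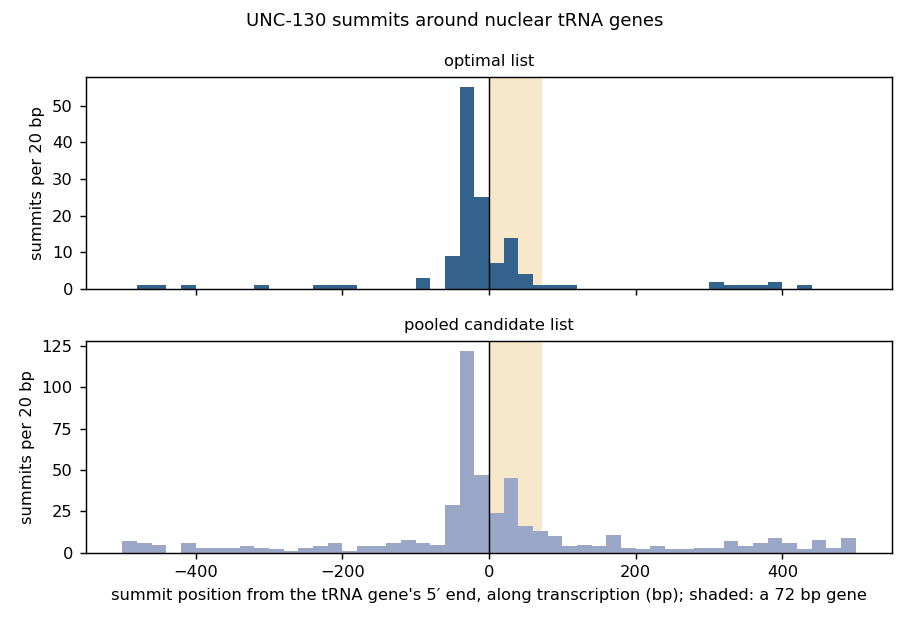
Number of summits (vertical axis) in 20 bp steps from 500 bp before to 500 bp after the 5′ end of a tRNA gene (horizontal axis, in bp along transcription), for the optimal list and the pooled candidate list; a summit near several tRNA genes counts for each, and shading marks a gene of 72 bp. In both lists the highest column is the step from -40 to -21 bp, with 55 and 122 summits, and a lower one from 20 to 39 bp holds 14 and 45.

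Identical copies of a tRNA gene differed in occupancy. The 612 genes have 200 distinct sequences, and 32 sequences were present in 5 or more copies. Of these 32 families, 30 had an optimal peak at 1 or more copies, and none had one at every copy. The share ran from 0% to 60%, the highest being a tRNA-Gln family (anticodon CTG) with 3 of 5 copies. The family of 29 tRNA-Gly genes, printed above, had 6 copies with an optimal peak and 18 with a candidate peak. M02F4.t1 shared its peak of rank 746 with the neighbouring M02F4.t2, and its signal was 48.3 in the pooled list. The tRNA-Lys family with anticodon CTT had 6 of 25 copies with an optimal peak and the tRNA-Pro family with TGG 2 of 24.

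How reads that match several copies were treated is not given in the sources used here. Copies were counted by identity of the whole gene sequence, so a single-copy gene can still be nearly equal to another. C16B8.t2 and C16B8.t3, equal at 71 of 72 bases, both count as single-copy. The single-copy group is therefore not free of reads that could match elsewhere. By number of copies, 24 of 143 single-copy genes (16.8%, interval 11.5 to 23.8) had an optimal peak, 36 of 152 genes with 2 to 9 copies (23.7%, 17.6 to 31.0) and 62 of 317 with 10 or more (19.6%, 15.6 to 24.3). These intervals overlap. Candidate peaks were less frequent at single-copy genes, at 44.8% against 64.5% and 66.2%. Summits inside the gene made up 29.2% of those at single-copy genes (7 of 24, interval 14.9 to 49.2), 22.2% (8 of 36) and 17.7% (11 of 62, interval 10.2 to 29) in the optimal list. The median position in the optimal list was -22 bp at single-copy genes and -24 bp at genes with 10 or more copies. It differed more in the candidate lists, least so in replicate 1. The pooled median was -7.5 bp at 64 single-copy genes and -23.5 bp at 210 genes with 10 or more copies. In the full list of replicate 1 these were -14 bp (57 genes) and -20 bp (215 genes). In that of replicate 2 they were 23 bp (63 genes) and -19 bp (162 genes). The share of summits inside the gene had the opposite order in replicate 1, at 21.1% of single-copy genes and 25.6% of those with 10 or more copies. The part that read placement has in these values was not tested.

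Peaks were found across the amino acids, with methionine as the exception. RefSeq gives the amino acid of 607 genes, and the anticodon was read from the sequence of 592. Of 46 distinct anticodons read, 42 had at least 1 gene with an optimal peak. The highest shares were at tRNA-Ser, with 12 of 39 genes (30.8%, interval 18.6 to 46.4), tRNA-Val, with 9 of 31 (29%, 16.1 to 46.6), and tRNA-Leu, with 11 of 39 (28.2%, 16.5 to 43.8). Each of these intervals includes the 19.9% of all tRNA genes. The largest groups lay near it, with 10 of 55 for tRNA-Gly (18.2%), 9 of 46 for tRNA-Lys (19.6%), 9 of 44 for tRNA-Arg (20.5%) and 9 of 41 for tRNA-Glu (22%). The only tRNA-Sec gene, K11H12.t1, which serves the insertion of selenocysteine, had an optimal peak at rank 1904, with rank 6201 in replicate 1 and 604 in replicate 2.

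None of the 20 tRNA-Met genes had an optimal peak (Wilson interval 0 to 16.1). The simpler limit of 3 counts, which a count of 0 allows, would be 15.0% of 20 genes. They fall mainly into 2 families of 9 identical copies. Candidate peaks were nonetheless present at 12 of the 20, near the share of all tRNA genes. The highest, at C03F11.t1, had pooled rank 2802 and signal 22.4, close below the lowest optimal peak, and those at C02F12.t1 and C14B9.t1 ranked 2992 and 3184. These 3 lay close below the threshold of the optimal list, and the other 9 candidate peaks lay farther down, at ranks 4415 to 24253 with signals of 15.4 to 5.5. Among the highest peaks of replicate 1 were those of 2 tRNA-Met genes, and among those of replicate 2 there were 0. Other low shares were those of tRNA-Trp (1 of 12, at sup-7) and tRNA-Tyr (2 of 19).

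**Figure D4:**
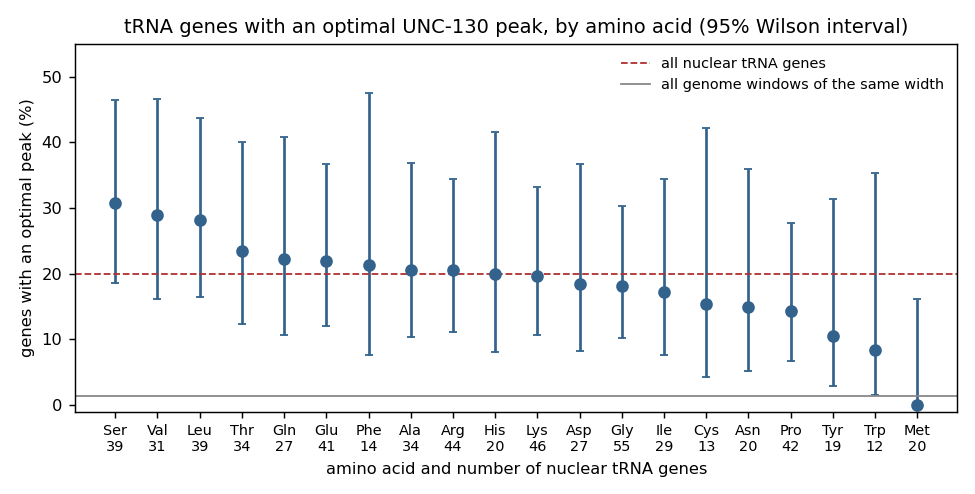
Share of tRNA genes with an optimal peak (%, vertical axis) for each amino acid with more than 5 genes (horizontal axis, with the number of genes), with 95% Wilson intervals; lines mark all 612 tRNA genes (19.9%) and all genome windows (1.36%). The interval of every amino acid but Met reaches the line of all tRNA genes, and Met, at 0 of 20, ends at 16.1%.

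By anticodon, groups are small. For tRNA-Pro, 3 of 6 genes with AGG had an optimal peak (50%, interval 18.8 to 81.2), against 2 of 31 with TGG (6.45%, 1.79 to 20.7). Of the 3 AGG genes, 2 share the peak at C16B8. For tRNA-Ser, 4 of 9 genes with TGA, 3 of 6 with CGA, 4 of 15 with AGA and 1 of 9 with GCT had one.

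The X chromosome carries 276 of the 612 tRNA genes and showed about the same occupancy as the autosomes. On X, 54 genes had an optimal peak (19.6%, interval 15.3 to 24.6), against 1.48% of its genome windows. On the autosomes, 68 of 336 had one (20.2%, interval 16.3 to 24.9), against 1.33%. The shares were 25.8% on I (17 of 66), 21.1% on II (12 of 57), 25% on III (16 of 64), 16.9% on IV (12 of 71) and 14.1% on V (11 of 78, interval 8.06 to 23.5). Their order follows that of the windows, which were 1.58%, 1.48%, 1.61%, 1.09% and 1.06%, apart from the exchange of I and III. In the middle 50% of the autosomes 38 of 170 tRNA genes (22.4%) had a peak, and in the outer parts 30 of 166 (18.1%), with overlapping intervals. Without replicate 1, in the highest peaks of replicate 2 alone, the share on X was 12.3% and that on the autosomes 15.2%.

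tRNA genes in introns and those between genes were occupied at shares whose intervals overlap. Introns of protein-coding genes held 283 tRNA genes, of which 66 had an optimal peak (23.3%, interval 18.8 to 28.6), against 1.06% of windows wholly inside introns. Between protein-coding genes lay 319, of which 55 had one (17.2%, interval 13.5 to 21.8), against 1.87% of intergenic windows. Among candidate peaks the shares were 60.1% and 60.8%. Of the 10 genes that overlap an exon, 1 had an optimal peak. On the strand of the host gene 39 of 160 intronic genes (24.4%) had a peak, and on the opposite strand 27 of 122 (22.1%, interval 15.7 to 30.3). The intronic share exceeded the intergenic one in both replicates' highest peaks, at 28.6% and 18.8% in replicate 1 and at 17.3% and 11.3% in replicate 2. In the upper 1315 optimal peaks it did not, at 7.42% and 7.52%.

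Most peaks at tRNA genes lay farther than 500 bp from a protein-coding start, as did most tRNA genes themselves. A protein-coding 5′ end lay within 500 bp of 104 tRNA genes, of which 22 had an optimal peak (21.2%, interval 14.4 to 30), against 100 of the 508 others (19.7%, 16.5 to 23.4). Of the 114 peaks, 20 (17.5%) had a summit within 500 bp of a protein-coding 5′ end, against 53.8% of the other optimal peaks.

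The share with a peak was lower among crowded tRNA genes, with intervals that overlap widely for runs of 2 and a little for longer runs. Of the 442 genes with no other tRNA gene within 500 bp, 98 had an optimal peak (22.2%, interval 18.5 to 26.3). In runs of 2 the share was 20 of 122 (16.4%, 10.9 to 24.0), and in runs of 3 or more 4 of 48 (8.33%, 3.29 to 19.6). The 13 runs of 3 or more genes all lie on X, while the genes without a neighbour come from all chromosomes. Of these runs, 10 had no optimal peak, among them the longest, 6 genes from F28H6.t2 to F28H6.t5 (X 14135045 to 14137010). In the run of 5 tRNA-Gln genes in an intron of ajm-1 (X 9090627 to 9091628), a gene for an apical junction protein, H08J11.t3 alone had one. The 8 peaks shared by neighbours lay over 5 of 42 divergent pairs, 3 of 33 tandem pairs and 0 of 21 convergent pairs. An optimal peak at either gene was present at 5 divergent (11.9%), 7 tandem (21.2%) and 5 convergent pairs (23.8%), so divergent pairs were not the most often occupied.

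Occupancy rose with the G and C content of the sequence before the gene, a relation examined after the data were seen. The 100 bp upstream had a median of 46% G and C at the 122 genes with an optimal peak (middle 50% from 42% to 50%). At the 250 genes with a candidate peak but no optimal one it was 43%, and at the 240 with neither it was 37% (32% to 43%). Ordered by this content and cut into 4 groups, 5 of 155 genes (3.23%, interval 1.39 to 7.33) with 16% to 35% had an optimal peak and 31 of 175 (17.7%, 12.8 to 24.0) with 36% to 42%. With 43% to 47% it was 38 of 140 (27.1%, 20.5 to 35.0), and with 48% to 68% it was 48 of 142 (33.8%, 26.5 to 41.9).

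The order of the 4 groups was the same in each replicate. Among the highest peaks of replicate 1 the shares were 5.81%, 20%, 31.4% and 38.0%, and among those of replicate 2 they were 0.645%, 10.9%, 20.7% and 25.4%. The difference in median content between genes with an optimal peak and genes with no candidate peak held in introns (46.5% against 37%), between genes (46% against 37%), on X (45% against 35%) and on autosomes (47% against 38.5%). Genome windows rose with their own content too, from 0.876% with an optimal peak at 16% to 35% G and C to 1.66%, 2.14% and 2.75% in the same 3 higher ranges. The 100 bp downstream of the gene held less G and C, so its 4 groups had other limits. With 13% to 25%, 26% to 30%, 31% to 35% and 36% to 55%, the shares were 11.7%, 17.8%, 25.7% and 25.5%. The 2 rises are therefore not measured over the same ranges. Sequencing itself can vary with base composition, and its part in this relation was not tested.

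**Figure D5:**
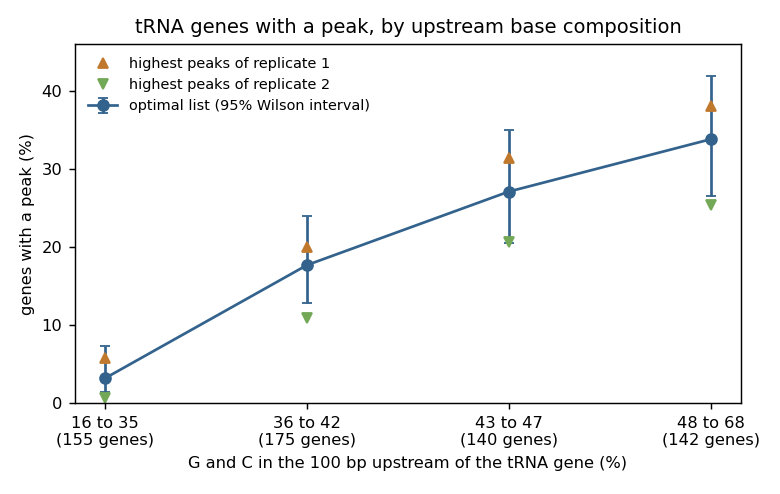
Share of tRNA genes with a peak (%, vertical axis) in 4 groups ordered by the G and C content of the 100 bp upstream (horizontal axis, in %, with the number of genes); circles with 95% Wilson intervals are the optimal list and triangles the highest peaks of each replicate. The optimal share climbs from 3.23% to 33.8%, and both replicates climb with it.

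Letters of the internal promoter did not separate the groups. The B box letters were present in 503 genes, of which 103 had an optimal peak (20.5%, interval 17.2 to 24.2), and absent from 109, of which 19 had one (17.4%, 11.5 to 25.6). With the A box letters 48 of 258 had a peak (18.6%), and without them 74 of 354 (20.9%). Genes with an intron of their own had a peak in 6 of 29 cases (20.7%), against 116 of 583 (19.9%). Nearly all genes (605) had TTTT within 30 bp downstream.

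The forkhead letters TGTTTAC or TGTTTGC, searched on both strands within 50 bp of the summit, were present at 10 of the 114 tRNA peaks (8.77%, interval 4.83 to 15.4). They were present at 10.7% of the other optimal peaks (9.58 to 12), at 5.33% of those among them that lay farther than 500 bp from a protein-coding start (4.18 to 6.77), and in 2.75% of all genome windows of 101 bp. The tRNA interval includes the first 2 of these shares and lies above the last.

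Among other short RNA genes, treated in the same way, snoRNA genes had a share close to that of tRNA genes and the other classes had lower ones. Of 346 snoRNA genes 68 had an optimal peak (19.7%, interval 15.8 to 24.2), and of 129 snRNA genes 14 (10.9%, 6.58 to 17.4). The 261 miRNA genes had 9 (3.45%). The 20 nuclear rRNA genes had 0 (interval 0 to 16.1), and 0 in the pooled candidate list too, against 15.3% of genome windows there. In the pooled candidate list the snoRNA share was 48.3% (interval 43 to 53.5), below the 60.8% of tRNA genes.

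Protein-coding genes of the polymerase III machinery and of tRNA processing were taken from a list of 35 symbols, of which 29 were in the annotation. The list was chosen with earlier results of these data known, so its shares only describe these genes. An optimal summit lay within 500 bp of the 5′ end of 8 (27.6%, interval 14.7 to 45.7), against 8.99% of all protein-coding genes. Among genes of polymerase III and its factors these were rpac-19, a subunit shared by polymerases I and III (rank 800, signal 46.7, 95 bp upstream), and mafr-1, which encodes the Maf1 repressor of polymerase III (rank 1221, 266 bp upstream). The TFIIIC gene tftc-1 had one at rank 1637 (155 bp upstream). The genes snpc-3.4 (rank 1725) and snpc-4 (rank 2610) for the complex that activates small nuclear RNA genes had one each. The others were pus-1 (rank 1242), for a pseudouridine synthase, trm-1 (rank 2391), for a tRNA methyltransferase, and the exportin gene xpo-3 (rank 2395). No optimal summit lay that near to rpc-1 and rpc-2, the large subunits of polymerase III, to tbp-1 or brf-1 of TFIIIB, or to the ligase gene rtcb-1. In the pooled candidate list the contrast was smaller: 14 of the 29 had a summit within 500 bp, against 36.6% of all protein-coding genes.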

How the data were processed

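ChIP-seq peak lists of 2 biological replicates of eGFP-UNC-130 L1 larvae were analysed. Per the labels and the notes deposited with the files, the lists are in narrowPeak layout on ce11, called on each replicate, on both pooled, and thresholded by irreproducible discovery rate. The sources used here name no aligner, peak caller, version or cut-off. The deposited signal per peak is the authors' and was used only to rank peaks within a list. Lists on ce10 were not used. Gene models came from Ensembl release 115, with names, amino acids, pseudogenes and sequence from RefSeq, all on WBcel235; all 612 tRNA genes matched. Anticodons were read from the spliced gene as the middle of a 7-base loop closed by a stem of 5 positions, not all of which had to pair. They were kept where they fit the RefSeq amino acid (3 contradicted it). Coordinates count from 1. Overlaps and intervals were computed in Python 3.11.15 with numpy 2.4.6 and scipy 1.17.1, and the code was tested on simulated data. No test was run, since there is 1 group. Alternatives were the extension, a summit rule, a stricter list, single replicates, and sets of tRNA genes. The tRNA genes described singly were those with the 10 highest optimal peaks, the highest per chromosome and in an intron, runs with most genes covered, and the best without an optimal peak; others named were chosen after their values were seen. The members and lists were chosen with earlier results of these data known.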

Additional observations from a re-analysis of the deposited data

How the results depend on the processing

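Against 122 genes and 114 peaks in the main setting, the upper 1315 optimal peaks gave 46 genes and 40 peaks, and counting 1 gene per distinct sequence gave 41 genes (of 200, 20.5%) and 40 peaks; the first keeps fewer peaks and the second fewer genes. The ratio of the tRNA share to that of genome windows lay between 9.72 and 27.5 over all 10 alternatives. In the upper 1315 peaks the shares fell to 7.42% of intronic, 7.52% of intergenic, 6.88% of X-linked and 8.04% of autosomal genes, so that intronic genes no longer exceeded intergenic ones. Leaving out a replicate gave 85 to 142 genes, 79 to 132 peaks, 17.3% to 28.6% of intronic, 11.3% to 18.8% of intergenic, 12.3% to 23.2% of X-linked and 15.2% to 23.2% of autosomal genes, with the low values without replicate 1. The median summit position of -24 bp was -23.5 bp with no extension or with the summit inside the region, -23 bp with 250 bp of extension and without either replicate, -29.5 bp in the upper 1315 peaks and -22 bp with 1 gene per run. The cause of these shifts was not tested. Of 70 recomputed values 50 stayed within their limits. For the summit position the medians of the 2 replicates had a standard deviation of 0 bp. Any change from -24 bp, even to -23.5 bp, therefore counted as moved. The alternative of genes with a read anticodon was added after the data were seen. No paired analysis was possible because there is a single group.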

Other observations

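Of the 209 tRNA pseudogenes, T08B2.t1 (I 6212821 to 6212892) had an optimal peak of rank 261 and D1046.t1 (IV 8927200 to 8927273) one of rank 654. The 7 tRNA genes with no TTTT within 30 bp downstream had neither an optimal nor a candidate peak, with a Wilson interval of 0 to 35.4%; the simpler limit of 3 counts would be 42.9%. Of the 20 genes with no anticodon read, 1 had an optimal peak (5.0%, interval 0.888 to 23.6) and 5 a candidate peak.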
